A study of Mus musculus with 6 samples.

Results

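ATF4 is the transcription factor that cells make when amino acids run short or unfolded protein gathers in the endoplasmic reticulum (ER), and 10 genes of its program were measured here in mouse breast tumors. They were taken by symbol from a table of 16763 genes: the factors Atf4, Atf5 and Ddit3, the feedback and stress genes Trib3, Chac1 and Sesn2, the biosynthetic enzymes Asns, Psat1 and Phgdh, and the receptor gene Vldlr. All 10 were in the table, and all 10 were among the 12891 genes with enough counts to be tested.

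In the integrated stress response, kinases that sense missing amino acids (GCN2), unfolded protein (PERK), double-stranded RNA (PKR) or heme shortage (HRI) phosphorylate the initiation factor eIF2. General translation slows, while the Atf4 mRNA, whose leader holds upstream reading frames, is translated more. ATF4 then switches on genes for amino acid synthesis, uptake and tRNA charging, and in tumors this program lets cells keep growing on a poor supply. Because much of the control of ATF4 is exerted on its translation, mRNA levels report on it only in part.

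Total RNA was sequenced from whole breast tumors that 4T1 cells, a mouse mammary carcinoma line, had formed in BALB/c animals. The model group (n = 3 libraries) bore such tumors, and the DMDD liposome group (n = 3 libraries) bore them and was given DMDD in liposomes; the labels do not spell out DMDD, nor do they give a dose, a time or an age. They give the sex as male and call the animals rats in one field, against mouse as the organism, and they do not say whether each library came from its own animal, so the tests rest on a spread between libraries that may be technical. Libraries held 13037500 to 15616840 counts, at which 3 counts in a library stand for 0.194 to 0.230 CPM (counts scaled to a common library total).

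Tumor epithelial markers were present in every library, with 12 markers summing to 4260 to 7163 CPM in model and 3893 to 4873 CPM in DMDD liposome. Several libraries stood apart. Model replicate 1 had the lowest epithelial sum of its group (4260 CPM, against 7163 and 6436 CPM). In model replicate 2, 8 skin keratinocyte markers summed to 230 CPM, against 5.37 to 7.40 CPM elsewhere. DMDD liposome replicate 2 was highest for fat cell markers, at 115 CPM over 6 genes against 16.2 to 43.2 CPM elsewhere, and for fibroblast markers, at 10900 CPM over 8 genes against 4002 to 7563 CPM. Skeletal muscle markers summed to 134 and 269 CPM over 8 genes in DMDD liposome replicates 1 and 3, against 34.3 to 64.3 CPM elsewhere. Mast cell markers summed to 89.3 and 89.4 CPM over 7 genes in model replicates 2 and 3, against 21.1 to 36.0 CPM elsewhere. In RNA from whole tumors, fewer cells of a type and less RNA per cell cannot be told apart.

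With a C/EBP partner ATF4 is known to bind composite elements whose core can be written TGATGNAA. RefSeq promoter windows of build GRCm38.p6, from 250 bases before to 50 after each annotated start, were found for all 10 genes (13 windows), and this motif was searched on both strands. It was present in 4 of the 13 windows, those of Chac1, Trib3, Asns and the second start of Vldlr, and in 3.97% of all 32851 windows. A match describes letters only and does not show binding, and the lack of one says only that these letters are not in the window. The stretches around the matches are printed on the gene's strand, 5′ to 3′, with the matched bases in capitals, since these are the windows of the set in which the letters were found and Chac1 is the gene of the 10 with the largest fold change. The stretch of Chac1 lies upstream of its exons on the plus strand at chr2:119351023-119351082. The others are limited to 30 bases because they touch an annotated exon: Trib3 on the minus strand at chr2:152344028-152344057, Asns on the minus strand at chr6:7693214-7693243, and Vldlr on the plus strand at chr19:27216809-27216838.
Chac1: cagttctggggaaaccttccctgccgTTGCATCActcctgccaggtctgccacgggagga
Trib3: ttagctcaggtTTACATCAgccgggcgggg
Asns: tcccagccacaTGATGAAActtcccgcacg
Vldlr: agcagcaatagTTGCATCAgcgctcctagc
In Chac1, Trib3 and Vldlr the match is on the opposite strand, so it reads as the reverse complement, and Chac1 and Vldlr hold the same 8 bases.

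The comparison asked whether expression of these genes differed between tumors given DMDD liposome and model tumors. None of the 10 passed the test across all genes (edgeR's quasi-likelihood test, Benjamini-Hochberg adjusted p of 0.626 or more), where 0 of 12891 genes passed (0%). At an unadjusted p under 0.05, 1 of the 10 was found, Chac1, beside 7.65% of all genes tested. DESeq2 and the authors' deposited table also called none of the 10, and called 0.352% and 0.346% of 16763 genes. The 3 values of each group overlapped for all 10. They did not overlap for 12.9% of genes tested, a share at which few of any 10 genes would lack overlap. Log2 fold changes, DMDD liposome over model, were positive for 4 and negative for 6 genes with a median of -0.15, beside a median of 0.01 over all genes tested. The median went to 0.03 without model replicate 2.

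**Figure D1:**
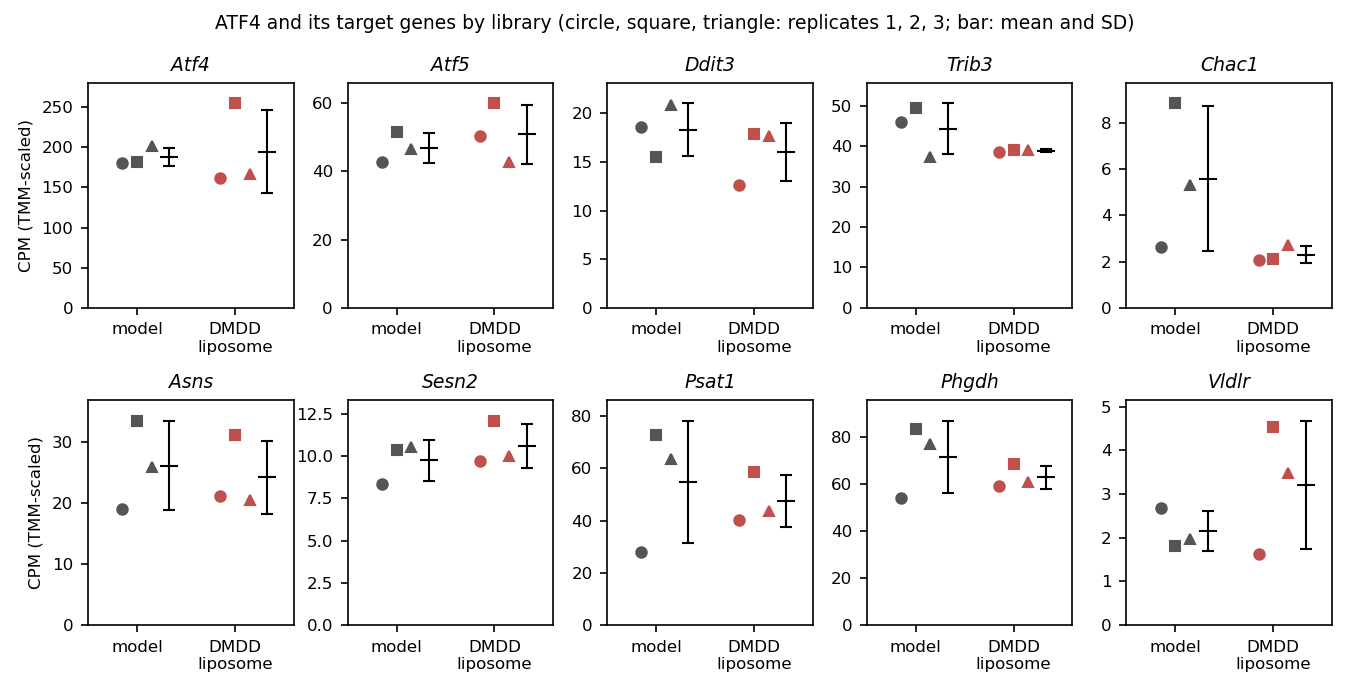
TMM-scaled CPM (linear axes from 0) of ATF4 and its 9 partner and target genes in each of the 3 model (grey) and 3 DMDD liposome (red) libraries, with the mean and SD of each group in black. The groups overlap in every panel, and Chac1 has the largest ratio between its group means (5.59 against 2.30 CPM).

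**Figure D2:**
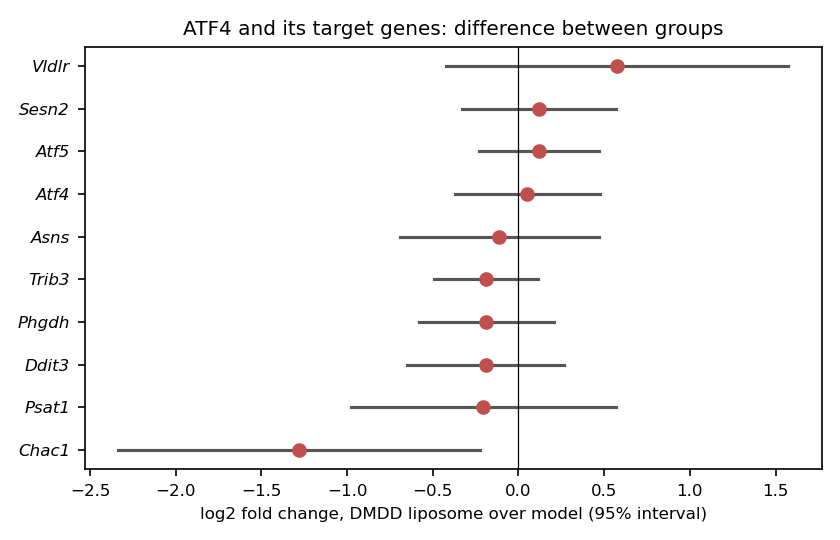
Log2 fold change, DMDD liposome over model, of each gene (points) with its 95% interval (lines) from edgeR's quasi-likelihood fit over 6 libraries. The interval of Chac1 runs from -2.34 to -0.23 and the intervals of the other 9 genes include 0, before any adjustment over genes.

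Atf4, which encodes the factor itself, was abundant, with group means of 188.0 and 194.9 CPM in model and DMDD liposome. In model replicates 1 to 3 it measured 180.6, 182 and 201.5 CPM, and in the DMDD liposome libraries, in the same order, 162.3, 254.8 and 167.4 CPM. The DMDD liposome group thus held both the highest library and the lowest libraries. The log2 fold change was 0.05 ± 0.18 (SE), with a 95% interval from -0.37 to 0.47, which leaves room for a fold between 0.773 and 1.39. Its sign turned to -0.20 without DMDD liposome replicate 2.

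Atf5, a related factor whose mRNA also carries upstream reading frames, measured 42.8, 51.5 and 46.4 CPM in model and 50.2, 59.9 and 42.7 CPM in DMDD liposome. DMDD liposome replicate 2 was again the highest of the 6 libraries, and replicate 3 of that group the lowest. The log2 fold change was 0.12 ± 0.15 (95% interval -0.23 to 0.47), and it was -0.021 without DMDD liposome replicate 2.

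Ddit3, which encodes CHOP, a factor that promotes cell death under lasting ER stress, measured 18.6, 15.5 and 20.9 CPM in model and 12.6, 17.8 and 17.7 CPM in DMDD liposome. DMDD liposome replicate 1 was the lowest and model replicate 3 the highest. Between the groups the log2 fold change was -0.19 ± 0.20 (95% interval -0.65 to 0.26). The Ddit3 row needs a caution of its own: its counts and deposited FPKM (fragments scaled to gene length and library total) imply a gene length of 105 bases. GENCODE M21 lists a separate gene under the same symbol, with 1 coding transcript of 105 bases in 2 exons. All 105 bases lie within exons of the main Ddit3 gene and before its coding start, and the main coding transcripts are 890 and 600 bases long. Whether the counts cover the whole mRNA or only that stretch of its leader cannot be told apart from the table. The end of Ddit3 also overlaps Mars on the opposite strand, and a strand setting is not given in the sources used here.

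Trib3, a pseudokinase induced by ATF4 that feeds back to inhibit it, measured 46.2, 49.5 and 37.3 CPM in model and 38.5, 39.2 and 39.0 CPM in DMDD liposome. The DMDD liposome libraries lay within 1 CPM of each other, at a coefficient of variation of 0.880% against 14.2% in model, and above model replicate 3. At 519 to 572 counts per library, counting error alone is wider than 0.880%. The closeness of these 3 values is therefore not a measure of how uniform the group was. The log2 fold change was -0.19 ± 0.13 (95% interval -0.49 to 0.12), and -0.31 without model replicate 3, the lowest model library (unadjusted p = 0.0335, adjusted p = 0.928 by edgeR).

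Chac1, which breaks down glutathione and is among the more inducible ATF4 targets, had the largest fold change of the 10 in either direction. Its counts were 34, 137 and 81 in model and 29, 28 and 40 in DMDD liposome, replicates 1 to 3. These are 2.61, 8.83 and 5.32 CPM against 2.05, 2.12 and 2.73 CPM. Model replicates 2 and 3 stood above all DMDD liposome libraries, while model replicate 1 lay among them. The group means were 5.59 ± 3.12 and 2.30 ± 0.371 CPM (SD, n = 3 each). The log2 fold change was -1.28 ± 0.45 (0.411-fold, 95% interval 0.198 to 0.855). The unadjusted p was 0.0235 and the adjusted p 0.626 by edgeR, and the authors' deposited table lists an adjusted p of 0.332 for Chac1. The size of the difference depended on model replicate 2: without it the log2 fold change was -0.79 (unadjusted p = 0.105, adjusted p = 0.836 by edgeR). Without model replicate 1 it was -1.62 (adjusted p = 0.0847 by edgeR). Several marker lists had negative median log2 fold changes as well. Mast cell markers had a median log2 fold change of -2.17 with 5 of 6 tested genes negative, and their sum over 7 genes was 36.0, 89.3 and 89.4 CPM in model against 21.1, 30.1 and 32.9 CPM, so it was highest in the same 2 model libraries as Chac1. Epithelial markers had a median of -0.67 with 10 of 12 negative, and their sum was also highest in those libraries. Neutrophil markers had a median of -0.64 with 5 of 6 tested genes negative, but their sum over 7 genes was not lower. That sum was 442, 578 and 532 CPM in model against 484, 774 and 514 CPM, highest in DMDD liposome replicate 2. The keratinocyte sum was high in model replicate 2 (230 CPM) and not in model replicate 3 (6.501 CPM). The part of these cells in the Chac1 difference was not tested.

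Sesn2, whose protein restrains mTORC1 when leucine is scarce, had 109, 161 and 160 counts in model and 137, 160 and 147 in DMDD liposome. In CPM these were 8.36, 10.4 and 10.5 against 9.70, 12.1 and 10.02, with model replicate 1 lowest and DMDD liposome replicate 2 highest. Its log2 fold change was 0.12 ± 0.19 (95% interval -0.33 to 0.57).

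Asns, Psat1 and Phgdh encode enzymes that make amino acids: asparagine synthetase, and the first enzymes of the serine pathway from 3-phosphoglycerate (PHGDH, then PSAT1). Psat1 measured 28.1, 72.7 and 63.5 CPM in model and 40.2, 58.7 and 43.8 CPM in DMDD liposome. Model replicate 1 was the lowest of the 6 libraries and the other model libraries the highest, so the DMDD liposome values lay between them. Here the log2 fold change was -0.21 ± 0.33 (95% interval -0.98 to 0.57).

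Phgdh measured 54.2, 83.3 and 77.1 CPM in model and 59.0, 68.4 and 61.0 CPM in DMDD liposome. Its log2 fold change was -0.19 ± 0.17 (95% interval -0.58 to 0.20). The 6 libraries stood in the same order for Phgdh as for Psat1, from model replicate 1 at the bottom through DMDD liposome replicates 1, 3 and 2 to model replicates 3 and 2 at the top. GENCODE M21 also lists a processed pseudogene of Phgdh, and whether reads were split between them is not given in the sources used here. Asns measured 18.9, 33.5 and 25.9 CPM in model and 21.1, 31.1 and 20.4 CPM in DMDD liposome, again with model replicate 1 lowest and model replicate 2 highest. Its log2 fold change was -0.11 ± 0.25 (95% interval -0.69 to 0.47).

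The values of the serine enzymes depended on model replicate 1. Without it the log2 fold change was -0.52 for Psat1 (unadjusted p = 0.0249, adjusted p = 0.230 by edgeR) and -0.35 for Phgdh (unadjusted p = 0.0182, adjusted p = 0.202). In that fit 3 of the 10 genes had an unadjusted p under 0.05 (Chac1, Psat1 and Phgdh), beside 16.3% of 13159 genes tested, and none of the 10 passed the adjusted threshold, beside 0.851% of genes tested. Without model replicate 2, on the other hand, Psat1 went to 0.045 and Asns to 0.10. Epithelial markers, with a median log2 fold change of -0.67 and 10 of 12 negative, were also lowest of the model group in replicate 1. They summed to 4260, 7163 and 6436 CPM in model and to 4506, 3893 and 4873 CPM in DMDD liposome. The part of tumor cell content in the serine enzyme values was not tested.

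Vldlr, the very low density lipoprotein receptor, which ATF4 is known to induce under ER stress, was the least abundant per gene length. It had 35, 28 and 30 counts in model and 23, 60 and 51 in DMDD liposome. DMDD liposome replicates 2 and 3 stood above the model libraries and replicate 1 below them. The CPM were 2.68, 1.81 and 1.97 against 1.63, 4.53 and 3.48, and the log2 fold change was 0.58 ± 0.43 (1.49-fold, 95% interval 0.747 to 2.98). It was 0.89 without DMDD liposome replicate 1 and 0.24 without replicate 2. Fat cell markers summed to 26.3, 29.99 and 23.0 CPM in model and 43.2, 115 and 16.2 CPM in DMDD liposome, highest in replicate 2 and lowest of all in replicate 3, the library second highest for Vldlr. Endothelial markers summed to 320, 167 and 195 CPM in model and 270, 346 and 244 CPM in DMDD liposome over 8 genes. Their part in the Vldlr values was not tested.

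**Figure D3:**
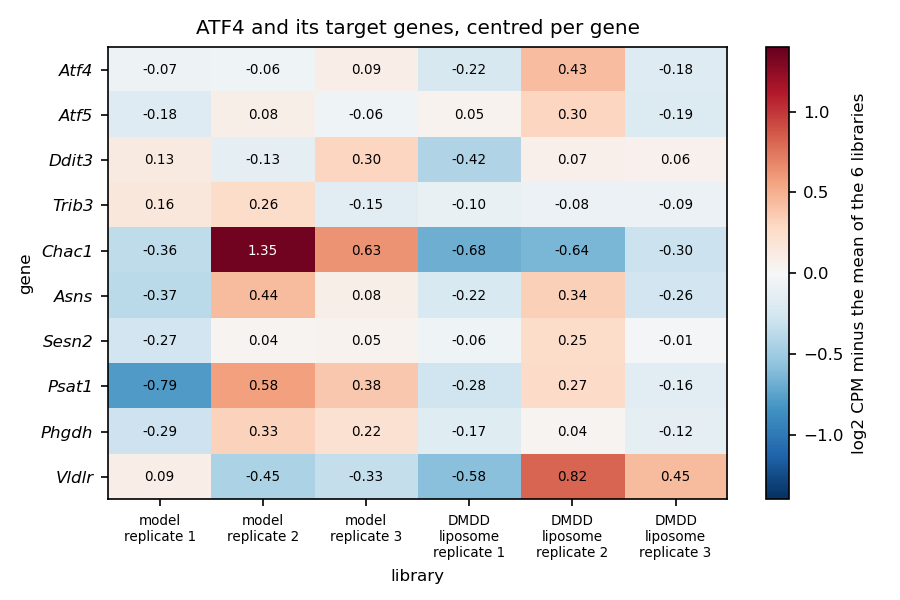
Log2 CPM of each gene in each library minus the gene's mean over the 6 libraries (color and printed value). Model replicate 1 is low for Psat1 (-0.79) and Asns (-0.37), model replicate 2 is high for Chac1 (1.35), and DMDD liposome replicate 2 is high for Vldlr (0.82) and Atf4 (0.43).

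Some libraries were extreme for many of the 10 genes at once. DMDD liposome replicate 2 was the highest library of its group for 9 of the 10 genes, all but Chac1, against 38.3% of all genes tested. DMDD liposome replicate 1 was the lowest of its group for 8 of the 10, against 29.4% of all genes, and model replicate 1 was the lowest of its group for 7 of the 10, against 35.4%. The SD of log2 CPM within groups was 0.62 for Chac1, 0.56 for Psat1 and 0.55 for Vldlr, and 0.15 to 0.37 for the other 7 genes. The Psat1 value compares with a median of 0.16 over 2615 genes of similar abundance. For Chac1 that median was 0.41 over 863 genes, and for Vldlr 0.48 over 758. Only Trib3 (0.15, against 0.17 over 2594 genes) and Sesn2 (0.18, against 0.28 over 1347) lay below the median of such genes.

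Levels can be compared between genes per length, on the deposited FPKM. Ddit3 is left out of this order for the length given above. Atf4 was highest, with a median of 105.2 FPKM over the 6 libraries (range 96.6 to 145.7), and did not overlap Phgdh, the next, at 34.0 FPKM (28.7 to 44.1). Atf5 at 24.3 FPKM, Trib3 at 19.4, Psat1 at 17.4 and Asns at 10.9 followed, and the ranges of each neighboring pair from Phgdh to Asns overlapped. Sesn2 at 2.93 FPKM (2.41 to 3.43) and Chac1 at 1.63 FPKM (1.28 to 5.41) overlapped each other and lay below Asns. Vldlr was lowest at 0.277 FPKM (0.201 to 0.538).

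The rest of the pathway was read from lists of related genes, in none of which a gene passed the adjusted threshold (0 of 12891 over all genes). Over all genes tested, 6602 had positive and 6289 negative log2 fold changes, and 7.65% had an unadjusted p under 0.05 by edgeR. The 3 genes named per list are those of smallest unadjusted p. That choice favors groups without overlap, which 12.9% of all genes tested showed. A lack of overlap among them is thus no separate result, and it is not stated for every such gene. Around eIF2, 9 genes covered its kinases and their regulators, its phosphorylated subunit and subunits of its phosphatase. Their median log2 fold change was -0.08, with a range from -0.14 to 0.20. Eif2ak3, which encodes PERK, measured 29.4 to 30.4 CPM in model and 32.0 to 35.4 CPM in DMDD liposome (log2 fold change 0.20 ± 0.11, unadjusted p = 0.102, adjusted p = 0.680 by edgeR), and its groups did not overlap. Eif2s1, the phosphorylated subunit of eIF2, stood at -0.14 ± 0.10 and Eif2ak1, which encodes HRI, at -0.14 ± 0.13. Among the 8 partner and related factors the median was -0.11. Atf3, itself induced by ATF4, stood at -0.48 ± 0.29 with 42.8, 26.3 and 31.3 CPM in model against 15.0, 32.0 and 25.1 CPM. Jdp2, a repressor related to it, stood at 0.52 ± 0.29, with DMDD liposome replicate 2 at 39.4 CPM and the other 5 libraries at 15.3 to 20.7 CPM, and at 0.11 without that library. Nfe2l2, which encodes the antioxidant factor NRF2, stood at -0.17 ± 0.10.

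Downstream, amino acid enzymes lay on both sides of 0. Of 9 tested serine, glycine and one-carbon genes 6 were negative, with a median of -0.12. Mthfd1l, which makes formate in mitochondria, measured 86.7, 88.7 and 104 CPM in model and 65.5, 78.3 and 70.5 CPM in DMDD liposome, so that the groups did not overlap (log2 fold change -0.38 ± 0.12, unadjusted p = 0.0124, adjusted p = 0.626 by edgeR). Cth, which makes cysteine, stood at -0.45 ± 0.34, with DMDD liposome replicate 2 at 11.3 CPM and the other 5 libraries at 29.2 to 33.0 CPM. Without DMDD liposome replicate 2, Cth was at -0.12. Psph, the last serine enzyme, stood at -0.15 ± 0.12. Of 7 proline, aspartate and alanine genes 6 were positive, with a median of 0.20. Glul, which makes glutamine, measured 63.0, 60.6 and 44.1 CPM in model and 90.1, 96.5 and 77.3 CPM in DMDD liposome (log2 fold change 0.66 ± 0.16, unadjusted p = 0.00409, adjusted p = 0.626 by edgeR). Pycr1, of proline synthesis, stood at 0.58 ± 0.28 and the mitochondrial enzyme gene Pck2 at 0.20 ± 0.10, both without overlap of the groups.

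The tRNA charging and uptake genes were also mixed. Of 20 tRNA synthetase and export genes 14 were negative, with a median of -0.10. Wars, for tryptophan, stood at 0.27 ± 0.10 and Cars, for cysteine, at -0.38 ± 0.15 (unadjusted p = 0.0264 and 0.0414, adjusted p = 0.626 and 0.639 by edgeR), and Qars, for glutamine, at -0.23 ± 0.13. Among 9 transporters 6 were positive, with a median of 0.11. Slc7a1, a carrier of cationic amino acids, measured 92.3, 85.3 and 92.7 CPM in model and 71.9, 78.6 and 65.6 CPM in DMDD liposome (log2 fold change -0.32 ± 0.10, unadjusted p = 0.0160, adjusted p = 0.626 by edgeR). Slc7a5 and Slc3a2, the chains of the leucine carrier LAT1, stood at 0.56 ± 0.22 and 0.28 ± 0.15. Macrophage markers had a median of 0.48 over 9 genes with 8 positive, and their sum ran from 1489 to 2767 CPM in model and 2830 to 3888 CPM in DMDD liposome; their part in these differences was not tested.

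Other stress genes and the remaining arms of the unfolded protein response gave small medians. Of 11 tested stress genes 6 were positive, with a median of 0.02. Nupr1, a small stress-induced chromatin protein, measured 130, 72.5 and 89.3 CPM in model and 163, 194 and 173 CPM in DMDD liposome (log2 fold change 0.86 ± 0.21, unadjusted p = 0.00378, adjusted p = 0.626 by edgeR), without overlap of the groups. It passed the adjusted threshold in DESeq2 (adjusted p = 0.0439) and in edgeR without model replicate 1 (adjusted p = 0.0347). Ddit4, an inhibitor of mTORC1 that low oxygen also induces, stood at -0.53 ± 0.26. The ER oxidase gene Ero1l stood at -0.71 ± 0.37, with model replicate 3 at 272 CPM and the other 5 libraries at 86.9 to 137 CPM. Without model replicate 3, Ero1l was at -0.16. Of 20 ER chaperone and related genes 15 were positive, with a median of 0.08. The cochaperone gene Dnajb9 stood at 0.44 ± 0.15, without overlap of the groups, and Xbp1, the factor of the IRE1 arm, at 0.41 ± 0.16 (unadjusted p = 0.0181 and 0.0341, adjusted p = 0.626 and 0.629 by edgeR). Atf6, the sensor of another arm, stood at -0.25 ± 0.11, with 109 to 111 CPM in model and 84.1 to 105 CPM in DMDD liposome.

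**Figure D4:**
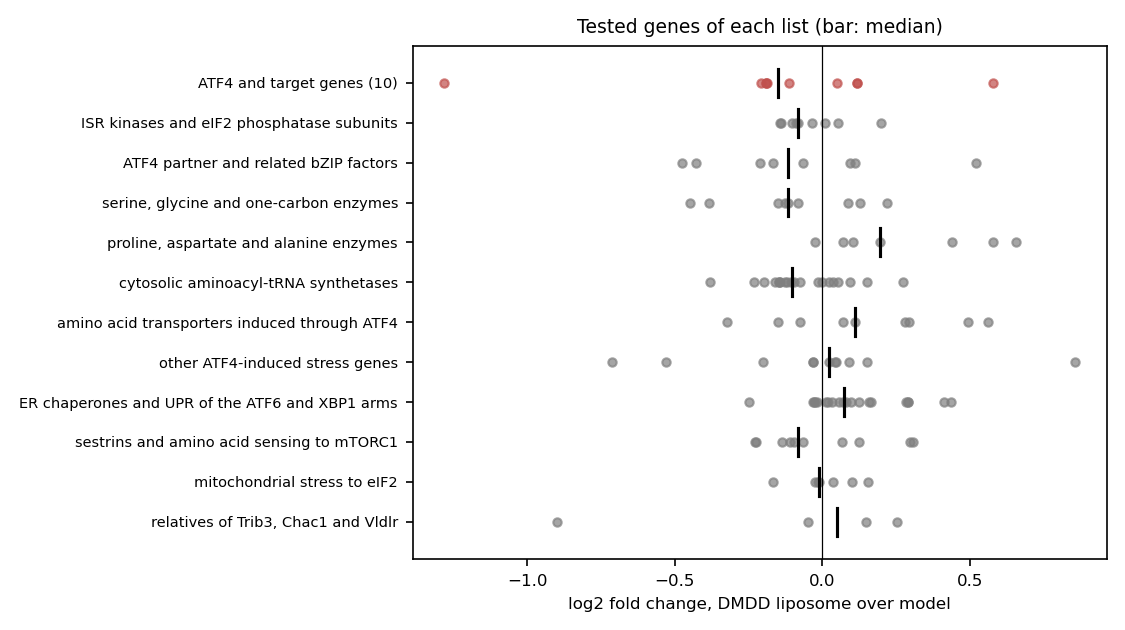
Log2 fold change, DMDD liposome over model, of every tested gene (points) of the 10 ATF4 genes (red) and of 11 lists of related genes (grey), with the median of each as a bar. The medians lie between -0.15 and 0.20, and the outermost genes are Chac1 (-1.28), Lrp8 (-0.90) and Nupr1 (0.86).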

How the data were processed

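Per the labels' protocols, tumor RNA was isolated by Trizol and an NEBNext kit was used for library preparation; groups and replicate numbers came from the sample descriptions. Per the file headers the table holds read counts per gene. The authors also deposited a normalized signal (each count divided by a size factor per library, as a constant ratio of the columns shows), FPKM, and a comparison with log2 fold changes (model in the numerator, so their signs are opposite to those printed) and p-values. The submitters' processing notes name build mm9 and DESeq2; for aligner, counter, annotation and strandedness the entry is: not given in the sources used here. Gene lengths were read back from counts and FPKM and set beside GENCODE M21 transcripts. Sequences are RefSeq's on GRCm38.p6, a build other than the mm9 that the processing notes name.

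The deposited counts entered edgeR 4.0.16 (R 4.3.3): filterByExpr (minimum count 10, minimum total 15) kept 12891 genes and left out 3872, TMM set the scaling, and a two-sided quasi-likelihood test of DMDD liposome against model used all 6 libraries, with Benjamini-Hochberg adjustment over all genes tested and a threshold of 0.05. SE come from the F statistic and intervals are 95%. Log2 CPM used a prior count of 2. Depth limits precision: intervals cover the spread between libraries, and low counts carry a large counting error. The test was also run on simulated counts with known changes, drawn independently for each library at the fitted dispersions. Those changes were larger than most fold changes printed here, so the run does not measure power for them. Alternatives were DESeq2 size factors, DESeq2 1.42.0, limma 3.58.1 (voom with quality weights), no count filter, a replicate block, a threshold of 0.01 and leaving out each library.

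The 10 genes and the lists were chosen with earlier results of these data known. All 10 are named, with the 3 genes of smallest unadjusted p in each of 11 related lists and the 5 genes of most similar profile. The lists held 121 genes (1 other related gene is not reported here); Prodh had no row, and Gldc, Cbs, Fgf21, Gdf15, Adm2 and Rragd had too few counts to be tested. Marker lists covered 11 cell types.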

Additional observations from a re-analysis of the deposited data

How the results depend on the processing

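None of the 10 genes passed the adjusted threshold under any alternative run, and 105 of their 110 refitted log2 fold changes kept their direction. The exceptions were Atf4, at -0.10 in limma-voom and -0.20 to 0.17 when 1 library was left out; Atf5, at -0.021 to 0.23; Asns, at -0.34 to 0.10; and Psat1, at -0.52 to 0.045. The median of the 10 ran from -0.23 to 0.03 over those fits and from -0.20 to -0.11 under the others. Over all genes, DESeq2 called 31 higher and 28 lower where edgeR called 0 (986 and 1175 genes at an unadjusted p under 0.05 in edgeR and DESeq2), and leaving out 1 library gave 0 to 43 higher and 0 to 69 lower, the upper values without model replicate 1; the cause was not tested. Chac1 ran from -1.62 to -0.79 and Vldlr from 0.24 to 0.89 without 1 library. Of the 33 related genes named, 31 kept their direction; without 1 library Clpp ran from -0.032 to 0.19 and Chac2 from -0.038 to 0.35. Nupr1 passed the adjusted threshold in DESeq2 and without model replicate 1 (at 1.12).

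With the replicate number as a block, edgeR called none of the 10 genes, with a median of -0.11 and Chac1 at -1.14 (unadjusted p = 0.0326, adjusted p = 0.545 by edgeR). The labels do not pair the libraries. Deviations of same-numbered libraries from their group means correlated across genes at 0.09, 0.11 and 0.12, and all 6 libraries correlated best with their own number, a hint from the data only. These 6 matches are not independent of each other, because the deviations within a group cancel out. Of the 10 genes, Chac1 and Vldlr had the lowest group means in CPM, so counting error weighs most on them. Counts were 34 to 137 in model and 28 to 40 in DMDD liposome for Chac1, and 23 to 60 for Vldlr. The coefficient of variation of Chac1 was 55.9% in model and 16.2% in DMDD liposome, so its model libraries also differed widely.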

Other observations

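Relatives of 3 of the genes were measured beside them. Lrp8, the apolipoprotein E receptor 2, is related to Vldlr. It measured 17.4, 22.8 and 39.7 CPM in model and 11.4, 17.9 and 13.6 CPM in DMDD liposome, so that model replicate 3 was highest and the groups overlapped. Its log2 fold change was -0.90 ± 0.32 (unadjusted p = 0.0246, adjusted p = 0.626 by edgeR), and -0.51 without model replicate 3. Trib2, a relative of Trib3, stood at 0.25 ± 0.22, and Chac2, which like Chac1 breaks down glutathione, at 0.15 ± 0.30.

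Among 10 tested genes of amino acid sensing to mTORC1, 6 were negative and the median log2 fold change was -0.08. Sesn1, which p53 induces, stood at 0.30 ± 0.15, Deptor, an mTOR inhibitor, at -0.22 ± 0.13 and the Rag GTPase gene Rraga at -0.14 ± 0.10. The 7 genes of mitochondrial stress had a median of -0.01, with the protease genes Lonp1 at -0.17 ± 0.09, Oma1 at 0.16 ± 0.20 and Clpp at 0.10 ± 0.14.

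The genes whose centred log2 CPM lay closest to the mean profile of the 10 over the 6 libraries, among 10807 genes of at least 5 CPM, were Senp1, Aldh16a1, Dolpp1, Nelfcd and Rce1, at root mean square differences of 0.028 to 0.055 on the log2 scale. Senp1 measured 29.0, 40.5 and 35.7 CPM in model and 27.8, 36.4 and 30.9 CPM in DMDD liposome.

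An implied length under 25% of the longest annotated coding transcript, as for Ddit3, was found for 12 of 16665 genes, and 52.9% of genes had an implied length equal to that transcript within 1 base.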
